A study of Mus musculus with 6 samples.

Results

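The miR-290 and miR-302 clusters are groups of microRNA hairpins that lie side by side, and the second includes Mir367. Both clusters are known from pluripotent mouse stem cells. Their accessible chromatin was described from 9 member genes, with Mir291a, Mir293, Mir294 and Mir295 on chromosome 7 and Mir302a, Mir302b, Mir302c, Mir302d and Mir367 on chromosome 3. Of the 69689 accessible regions in the authors' table, 18 had their midpoint inside a member gene or within 50 kb of its annotated limits, 12 at the miR-290 cluster and 6 at the miR-302 cluster. The regions were chosen by position alone, and all coordinates are those of mm10, counted from 1.

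The R1 line of wild-type mouse embryonic stem cells was profiled by ACC-seq, which marks open DNA by letting the transposase Tn5 place adapters there. The 6 libraries formed 3 groups of 2. Fix_1,6-Hex cells were held in 10% (w/v) 1,6-hexanediol, which disperses many condensates held by weak contacts, for 30 s and then fixed for 10 min in 1% formaldehyde with 1,6-hexanediol still present. Fix cells were fixed for 10 min in 1% formaldehyde without it, and Fresh cells were not fixed. Tagmentation took 30 min in all groups, at 55 °C for Fix_1,6-Hex and Fix nuclei and at 37 °C for Fresh nuclei, so Fix and Fresh differ in temperature as well as in fixation. All groups were grown on mouse embryonic fibroblast feeders with serum, 1000 U/mL LIF, 3 µM CHIR-99021 and 1 µM PD0325901, and feeders were removed by replating before treatment. The table gives a position and 1 of 9 cluster names per region and no value per library. Treatments could therefore not be compared at any region, depth is unknown, and the sources used here do not say what accessibility pattern a cluster name stands for. A region midpoint lay within 1 kb of a gene limit for 6 of 7 stem cell markers (all but Dppa3) and for 8 of 10 fibroblast markers (all but Col3a1 and Prrx1). Against the 60.9% of protein-coding genes with such a region, these counts do not separate the cell types, and the table holds no expression value that could.

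MicroRNAs are cut from hairpins in longer transcripts, and the mature strand guides Argonaute proteins to messenger RNAs that pair with its seed, bases 2 to 8 from the 5′ end. The miR-290 and miR-302 families share a seed, and in embryonic stem cells both are known to speed the passage from G1 to S phase by lowering inhibitors of the cell cycle such as Cdkn1a. The miR-290 cluster is known for its abundance in naive mouse stem cells, and the miR-302 cluster for its rise as cells move to the primed state. The stem cell factors OCT4, SOX2 and NANOG are known to bind at both loci.

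The mature sequences are shown because they tie the loci together. The RefSeq table for GRCm38.p6, the assembly called mm10 in the authors' notes, holds 17 mature entries for the 9 members. It lists no 3p strand for Mir302a, so that member could not be counted for the shared seed. The 8 entries from the 3p arm are printed with the seed in capitals.
mmu-miR-291a-3p: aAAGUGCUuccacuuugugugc
mmu-miR-294-3p: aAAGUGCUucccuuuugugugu
mmu-miR-295-3p: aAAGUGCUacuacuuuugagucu
mmu-miR-302b-3p: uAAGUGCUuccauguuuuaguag
mmu-miR-302d-3p: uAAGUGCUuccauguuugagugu
mmu-miR-302c-3p: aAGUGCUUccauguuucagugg
mmu-miR-293-3p: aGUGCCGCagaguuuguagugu
mmu-miR-367-3p: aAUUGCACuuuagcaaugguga
The seed AAGUGCU was shared by 5 of these 8 strands, 3 from chromosome 7 and 2 from chromosome 3. No other entry among the 1738 mature strands of the table carried it, and the table is not complete. In miR-302c-3p the same letters begin at base 1, because its listed 5′ end starts 1 base later, so that its seed reads AGUGCUU. From the first shared base on, strands were compared position by position without gaps. The 3p strands of Mir302b, Mir302c and Mir302d had 19 or 20 of 22 bases in common. Within the miR-290 cluster, miR-291a-3p had 18 of 21 bases in common with miR-294-3p and 14 of 21 with miR-295-3p, and miR-294-3p and miR-295-3p had 11 of 21. Between the clusters, the pairs ran from 13 of 21 (miR-294-3p and miR-302d-3p, for example) to 17 of 22 (miR-295-3p and miR-302d-3p). An inserted base lowers such counts, so they do not rank how closely the strands are related. Mir293 and Mir367 stood outside the shared seed, with GUGCCGC and AUUGCAC. The 2 clusters thus encode strands with the same seed. Within 50 kb their accessible regions differed in width and in number, with 12 at the miR-290 and 6 at the miR-302 cluster. Within 20 kb each locus had 4. Clusters 1, 2 and 9 occurred at both loci, and the other cluster names seen occurred at either locus alone.

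The member hairpins lay at or beside accessible regions, and the count near a midpoint depends on the distance allowed. A region midpoint lay within 1 kb of 9 of 9 member hairpins, against 19.9% of the 1228 annotated miRNA genes. The 9 hairpins share only 2 regions, because those of a cluster lie side by side, so the count stands for 2 loci. Within 500 bp the count was 2 of 9, 0 of 4 at the miR-290 cluster and 2 of 5 at the miR-302 cluster, against 12.4% of annotated miRNA genes. At the miR-290 cluster the region belonged to cluster 4 and spanned 3216171 to 3223492 of chromosome 7, a width of 7322 bp. At the miR-302 cluster it belonged to cluster 2 and spanned 127544558 to 127545349 of chromosome 3, a width of 792 bp. Cluster 4 held 3.47% and cluster 2 held 2.27% of all regions. A cluster 4 midpoint lay within 1 kb of 1.71% of annotated miRNA genes, and a cluster 2 midpoint within 1 kb of 1.22%.

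The region at the miR-290 cluster covered its hairpins whole, while the region at the miR-302 cluster ended among the hairpins. Mir291a (3218919 to 3219000) began 2748 bp after the start of the cluster 4 region, and Mir295 (3220773 to 3220841) ended 2651 bp before its end. Mir293 (3220343 to 3220422) and Mir294 (3220641 to 3220724) lay between them. The same region also held the cluster's other annotated hairpins, Mir290a, Mir290b, Mir291b, Mir292 and Mir292b, which makes 9 entries. These are not 9 separate positions, since Mir290b lies inside the limits of Mir290a and Mir292b inside those of Mir292. Of the 137 regions that held at least 1 whole miRNA gene, it held the most, ahead of a cluster 1 region of 1710 bp on chromosome 13 with 4 (Mir23b, Mir27b, Mir3074-1 and Mir24-1) and a cluster 7 region of 932 bp on chromosome 5 with 3 (Mir25, Mir93 and Mir106b). On chromosome 3, Mir302b (127545228 to 127545301) lay wholly inside the cluster 2 region, 48 bp from its end. Mir302c (127545363 to 127545430) lay 13 bp beyond that end, Mir302a (127545496 to 127545564) 146 bp, Mir302d (127545624 to 127545689) 274 bp and Mir367 (127545733 to 127545807) 383 bp. Accessibility as called here therefore covered the first hairpin of the row and not the other 4. Over both loci 5 of 9 members lay wholly inside a region, against 13.0% of annotated miRNA genes. Of annotated miRNA genes, 1.79% lay wholly inside a cluster 4 region and 0.814% wholly inside a cluster 2 region.

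**Figure D1:**
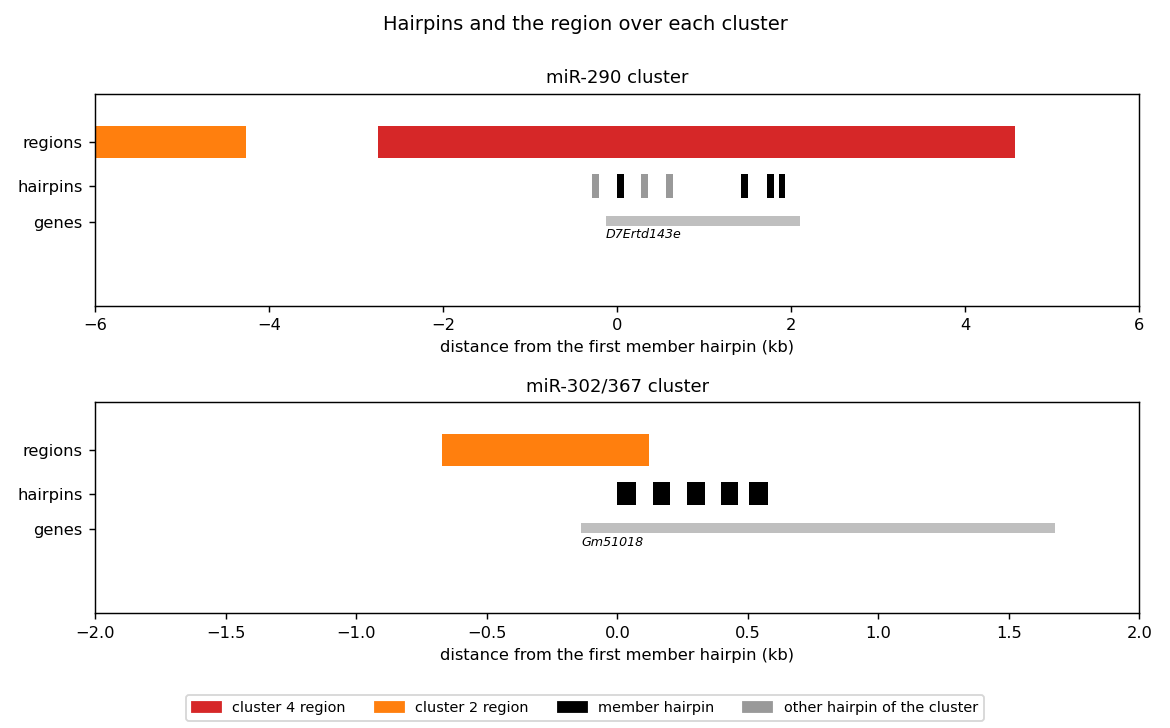
Position of hairpins, regions and lncRNA genes around the first member hairpin of each locus, with distance in kb on the x axis, 6 kb to either side in the upper panel and 2 kb in the lower. The 7322 bp region of cluster 4 spans all 9 annotated hairpin entries of the miR-290 cluster, some of which overlap, and the 792 bp region of cluster 2 ends after Mir302b.

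Each hairpin row starts close to the annotated start of a long non-coding RNA, and the region over the hairpins held that start. Mir302b to Mir367 lie inside the limits of Gm51018 (127545089 to 127546903), whose start was 136 bp from the midpoint of the cluster 2 region. They also lie inside the limits of Larp7, a protein-coding gene on the opposite strand whose product binds 7SK RNA. Mir291a to Mir295 lie inside the limits of D7Ertd143e (3218784 to 3221015), whose start was 1047 bp from the midpoint of the cluster 4 region, and inside those of Nlrp12, a gene on the opposite strand that encodes a regulator of inflammation. Exon and intron positions were not used, since the gene table lists outer limits alone. The RefSeq promoters of both lncRNAs (GRCm38.p6, 250 bases before to 50 after the start) lay wholly inside these regions and are printed in the direction of transcription, with capitals for motif matches. The promoter of D7Ertd143e, on the plus strand at chr7:3218534-3218833, also holds the Mir290a hairpin. Mir290a and Mir290b lie wholly before the annotated start of D7Ertd143e. A transcript from that start would not hold them, so this window is not shown to be the promoter of the whole miR-290 row. That of Gm51018 is on the plus strand at chr3:127544839-127545138. The promoter of Larp7, on the minus strand at chr3:127553300-127553599, is shown beside them because it lay in the other cluster 2 region of the locus.
D7Ertd143e: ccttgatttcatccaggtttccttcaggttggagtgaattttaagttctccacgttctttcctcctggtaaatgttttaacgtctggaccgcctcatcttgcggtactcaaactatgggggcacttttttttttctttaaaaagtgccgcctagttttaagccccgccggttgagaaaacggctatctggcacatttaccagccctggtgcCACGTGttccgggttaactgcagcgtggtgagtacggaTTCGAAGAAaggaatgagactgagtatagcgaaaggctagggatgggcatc
Gm51018: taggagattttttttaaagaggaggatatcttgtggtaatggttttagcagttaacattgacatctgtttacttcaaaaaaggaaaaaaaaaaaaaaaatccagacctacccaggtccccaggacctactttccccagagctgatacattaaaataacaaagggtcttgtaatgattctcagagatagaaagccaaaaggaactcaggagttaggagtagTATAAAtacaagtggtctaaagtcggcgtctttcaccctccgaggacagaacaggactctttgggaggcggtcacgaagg
Larp7: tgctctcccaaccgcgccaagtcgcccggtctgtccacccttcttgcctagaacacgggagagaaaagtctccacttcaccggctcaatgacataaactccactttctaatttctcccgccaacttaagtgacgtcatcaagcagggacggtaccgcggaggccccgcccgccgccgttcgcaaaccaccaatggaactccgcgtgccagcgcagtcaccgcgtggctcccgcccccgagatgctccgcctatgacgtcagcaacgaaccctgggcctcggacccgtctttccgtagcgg
Gm51018 had few CpG dinucleotides for a promoter in a cluster 2 region. It had 5 in 300 bases and a GC content of 40.3%, whereas the 1420 promoters wholly inside cluster 2 regions had a median of 24 and 62.7%. Only 1.13% of those promoters had as few or fewer. Larp7 and its divergent neighbour Zgrf1 had 30 and 34 CpG, and their promoters overlap. D7Ertd143e had 14 CpG and a GC content of 47.7%, against medians of 24 and 63.8% for the 1942 promoters inside cluster 4 regions, of which 15.1% had as few or fewer. The annotated promoters of both lncRNAs were thus poorer in CpG than most promoters that share their cluster name, and the neighbouring Larp7 promoter was not. Over all 32851 promoters the median was 7 CpG, so D7Ertd143e was not poor in CpG by that measure. Of all promoters, 63.7% had fewer CpG than D7Ertd143e and 38.0% had fewer than Gm51018.

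Of the motifs searched, the TATA box, E-box and STAT letters were found in the annotated promoters of these lncRNAs. The letters searched on both strands were ATGCAAAT (octamer, bound by OCT4), CATTGT (SOX factors), CTTTGA (TCF/LEF factors), GGGTGTGG (KLF factors), AAGGTCA (ESRRB), TTCNNNGAA (STAT factors), TATAAA (core of the TATA box) and CACGTG (E-box, bound by MYC). None of these motifs overlaps another in the promoters printed. Gm51018 held TATAAA starting 30 bp before its start. A TATAAA on the coding strand that starts 25 to 35 bp before the start was found in 1.75% of 32851 promoters of this length and in 0.563% of those inside cluster 2 regions. D7Ertd143e held CACGTG starting 39 bp before its start and TTCGAAGAA, a match to the STAT letters, starting 1 bp before it. CACGTG was found anywhere in 7.15% of the promoters, TTCNNNGAA in 8.30% and TATAAA in 13.6%. The octamer, SOX, TCF/LEF, KLF and ESRRB letters occur in 1.74%, 12.6%, 16.0%, 3.56% and 4.72% of them, and were not found in these windows. Larp7 held no match.

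**Figure D2:**
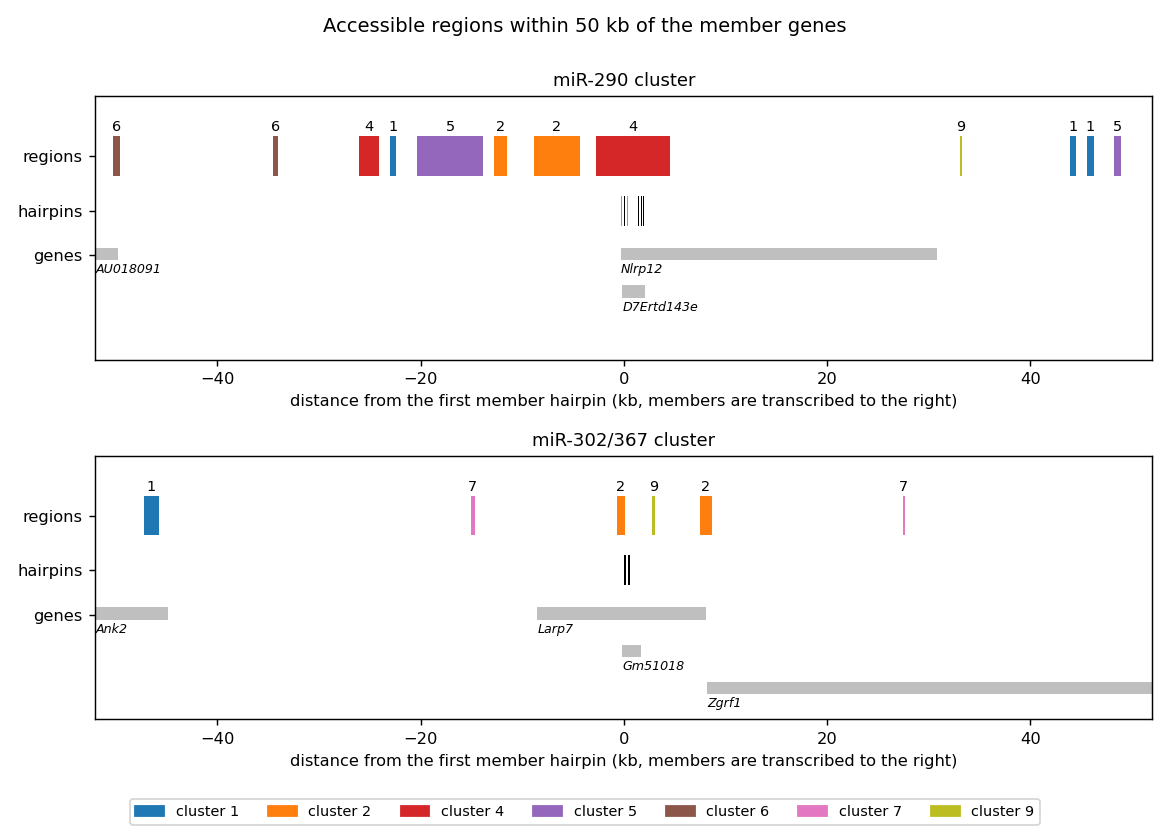
Accessible regions within 50 kb of the member genes, coloured and numbered by cluster, above the hairpins (members black, other hairpins grey) and the protein-coding and lncRNA genes, with distance from the first member hairpin in kb on the x axis. The miR-290 cluster has 12 regions, 6 of them in a closely spaced row that ends over the hairpins, and the miR-302 cluster has 6 scattered regions.

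Upstream of the miR-290 hairpins the chromatin was accessible over long stretches. From the hairpins outwards came a cluster 2 region of 4616 bp (3210039 to 3214654), whose midpoint lay 6.57 kb from Mir291a, and a cluster 2 region of 1268 bp (3206139 to 3207406) at 12.1 kb. Then followed a cluster 5 region of 6557 bp (3198551 to 3205107) at 17.1 kb and a cluster 1 region of 592 bp (3195897 to 3196488) at 22.7 kb. A cluster 4 region of 1901 bp (3192911 to 3194811) stood at 25.1 kb. With the region over the hairpins these made a row of 6 regions with gaps of 1.03 to 2.63 kb between them. The row ran over 30.6 kb and regions covered 72.8% of it, 22.3 kb in all. Its clusters read 4, 1, 5, 2, 2 and 4 in the direction of transcription, so 1 of 5 neighbouring pairs shared a cluster. When all regions of the table were joined wherever the gap was under 3 kb, this row ranked 4 of 57887 by bases covered. The place depends on that gap, which was chosen after seeing the data: under 2 kb the row held 2 regions, covered 11.9 kb and ranked 14, and under 5 and 12 kb it ranked 10 and 53. With the 3 kb gap, the first row lay on an unplaced scaffold, and the third, with 22.9 kb covered, lay inside Esrrb, a naive pluripotency factor. The row at the miR-302 cluster held 2 regions and covered 1.07 kb, and the median over all rows was 545 bp.

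Beyond that row the miR-290 window held regions of 200 to 762 bp, against a median of 474 bp for all regions. Upstream, 2 cluster 6 regions of 546 bp (3184369 to 3184914) and 632 bp (3168691 to 3169322) stood 34.3 and 49.9 kb from Mir291a, and the farther of them reached a limit of AU018091, a protein-coding gene. Downstream no region was listed for 28.5 kb. The next was a cluster 9 region of 200 bp (3251950 to 3252149) at 31.2 kb from Mir295, which lay 2.31 kb from the annotated start of Nlrp12. Then came 3 more, of cluster 1 with 597 bp at 42.2 kb (3262763 to 3263359), of cluster 1 with 762 bp at 44.0 kb (3264444 to 3265205) and of cluster 5 with 690 bp at 46.7 kb (3267182 to 3267871). The locus was thus lopsided, with 7 regions and 16.1 kb of region width upstream of the hairpins, and 4 regions and 2.25 kb downstream.

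Within 50 kb, the miR-302 hairpins had fewer and narrower regions than the miR-290 hairpins. There were 6 regions that covered 4.3 kb of the window, against 12 that covered 25.5 kb at the miR-290 cluster. Within 20 kb each locus had 4 regions. A cluster 9 region of 279 bp (127548037 to 127548315) stood 2.37 kb downstream of Mir367, inside the limits of Larp7. A cluster 2 region of 1120 bp (127552757 to 127553876) stood at 7.51 kb and covered the divergent starts of Larp7 and of Zgrf1, whose limits lie 46 bp apart. A cluster 7 region of 205 bp (127572683 to 127572887) inside Zgrf1 stood at 27.0 kb. Upstream, a cluster 7 region of 354 bp (127530195 to 127530548) lay 14.9 kb from Mir302b, between genes. A cluster 1 region of 1547 bp (127497998 to 127499544) at 46.5 kb overlapped Ank2, an ankyrin gene, and its midpoint was 0.344 kb from an annotated Ank2 start. The 2 regions upstream summed to 1.9 kb and the 3 downstream to 1.6 kb. Cluster 2 was listed in this window at the first hairpin, Mir302b, and at the Larp7 promoter.

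The 50 kb limit fell close to a region at 1 place. The outermost miR-290 region upstream lay 49.9 kb out, and the next, also of cluster 6 and 2633 bp wide, lay 53.6 kb out. Downstream the last inside was at 46.7 kb and the first outside, of cluster 6 and 620 bp wide, at 59.7 kb. At the miR-302 cluster the last inside stood at 46.5 kb upstream and 27.0 kb downstream, and the first outside at 74.7 kb (cluster 9, 321 bp) and 80.0 kb (cluster 1, 1003 bp).

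**Figure D3:**
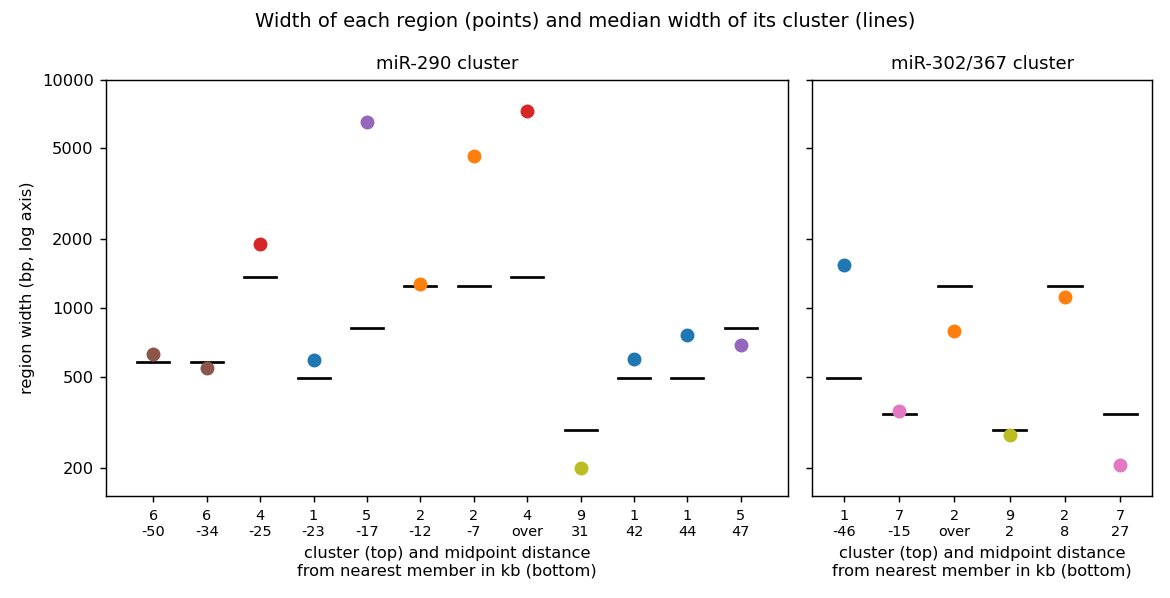
Width in bp on a log axis of the 18 regions (points), in genome order, each with the median width of all regions of its cluster (black line). At the miR-290 cluster the regions of 7322, 6557 and 4616 bp stand far above their lines, and at the miR-302 cluster the region over the hairpins, at 792 bp, lies below its line of 1243.5 bp.

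The regions of the miR-290 row were wide even among regions of the same cluster name. The region over the hairpins was 5.36 times as wide as the median cluster 4 region (1366.5 bp) and ranked 7 of 2420. The cluster 5 region upstream was 8.03 times its cluster's median of 817 bp and ranked 17 of 3528. The cluster 2 region of 4616 bp was 3.71 times the cluster 2 median of 1243.5 bp and ranked 6 of 1584. Among all 69689 regions these 3 ranked 64, 92 and 344 by width. The other 3 regions of the row stood nearer to their medians: the cluster 4 region of 1901 bp was 1.39 times, the cluster 1 region 1.19 times and the smaller cluster 2 region 1.02 times as wide. At the miR-302 cluster the hairpin region was 0.637 times the cluster 2 median, and 6.94% of cluster 2 regions were narrower. The region at the Larp7 and Zgrf1 starts was 0.901 times that median, and the region at Ank2 was 3.12 times the cluster 1 median of 496 bp. Over the 18 regions the median width was 726 bp, against 568 bp for the 5688 regions within 50 kb of any annotated miRNA gene and 474 bp for all regions. Regions wider than 4 kb were 3 of 18, against 0.816% of all regions, regions wider than 2 kb were the same 3, against 6.27%, and regions wider than 1 kb were 7 of 18, against 23.1%. These widths are the authors' region limits, and the calling and merging behind them are not described in the sources used here.

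The 18 regions were spread over 7 of the 9 clusters. Clusters 1 and 2 took 4 regions each, which is 22.2% (exact binomial 95% interval 6.41 to 47.6%, for counting error only). Cluster 2 held 2.27% of all regions and 3.04% of those within 50 kb of any annotated miRNA gene, and it appeared with 2 regions at either locus. Cluster 1 held 18.7% of all regions and 22.7% of those near miRNA genes, and it took 3 regions at the miR-290 and 1 at the miR-302 cluster. Clusters 4 and 5 took 2 regions each (11.1%, 1.38 to 34.7%), all at the miR-290 cluster, against 3.47% and 5.06% of all regions. Cluster 6 also took 2, both at the miR-290 cluster, against 12.7%. Cluster 7 took 2, both at the miR-302 cluster, against 18.9%, and cluster 9 took 1 at either locus, against 26.2%. Clusters 3 and 8, with 3.61% and 9.04% of all regions, were not seen among the 18, for which the interval reaches up to 18.5%. Neighbouring regions are not independent and only 2 loci stand behind these counts, so no p-value is given, and none of the shares is called particular to these loci.

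Set beside other miRNA loci, the miR-290 cluster lay near the top by accessible sequence and the miR-302 cluster near the middle. Annotated miRNA genes were joined into 943 loci wherever they lay within 10 kb, 100 of them with more than 1 gene. The regions within 50 kb summed to 25.7 kb at the miR-290 cluster and 4.30 kb at the miR-302 cluster, against a median of 4.31 kb over the 943 loci. By this sum the miR-290 cluster ranked 6 and the miR-302 cluster ranked 474. By number of regions the contrast was smaller: the miR-290 cluster had 12 regions and 82.7% of loci had fewer, whereas the miR-302 cluster had 6, equal to the median of 6 (quartiles 3 and 10). The miR-290 cluster thus ranked higher by summed region width than by number of regions. The 5 loci above it were Mir6927, Mir1905, Mir1934, Mir7003 and Mir6913, all with a lone hairpin. Around 21887 protein-coding genes, which are longer and so have larger windows, the median sum was 4.81 kb, and 99.1% had less than the miR-290 cluster and 46.0% less than the miR-302 cluster.

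**Figure D4:**
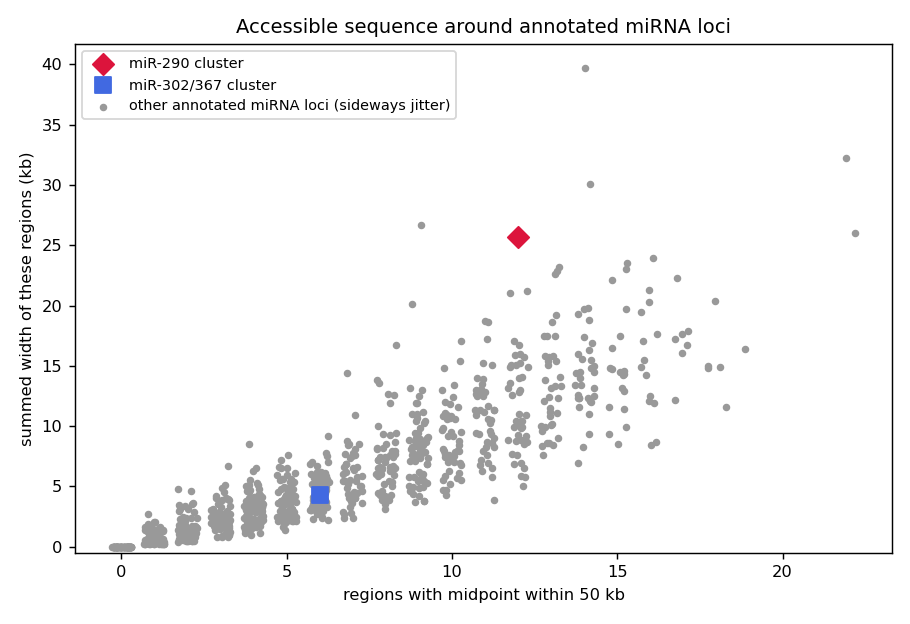
Number of regions within 50 kb (x axis, with sideways jitter for the grey points) and their summed width in kb (y axis) for 943 annotated miRNA loci. The miR-290 cluster (diamond) lies at 12 regions and 25.7 kb and the miR-302 cluster (square) lies at 6 regions and 4.30 kb in the middle of the points.

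Other microRNA clusters with a related seed differed among themselves in accessibility at the hairpins. Mir17, Mir18, Mir19a, Mir20a, Mir19b-1 and Mir92-1, which form the miR-17 to miR-92 cluster and act in proliferation, had no region midpoint within 1 kb and 2 regions within 50 kb, summing to 3.63 kb. Mir106b, Mir93 and Mir25 lay in a cluster 7 region of 932 bp and had 11 regions within 50 kb, summing to 11.2 kb. Of 22 miRNA genes known from differentiated cells, 11 had a region midpoint within 1 kb (50.0%, against 19.9% of annotated miRNA genes). It was of cluster 1 at 6 genes, against 5.13% of annotated miRNA genes, and these 6 share 5 regions. Of the first 6 of that list, Mirlet7g, Mir9-1 and Mir9-2 had 1 region each, of clusters 7, 9 and 7, and Mirlet7a-1, Mirlet7b and Mirlet7c-1 had none. Clusters 2 and 4, found at the member hairpins, were not listed within 1 kb of these hairpins, and with 1.22% and 1.71% of annotated miRNA genes near such a midpoint, lists of this size do not set the members apart.

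Genes for the machinery that makes and uses microRNAs had regions of several clusters. Leaving out Larp7, a choice made after values were seen because its region is among the 18, a region lay within 1 kb of a gene limit at 14 of 20 such genes (15 of 21 with it), against 60.9% of protein-coding genes. It was of cluster 2 at 3 genes (4 with Larp7), against 5.86% of protein-coding genes, and of cluster 3 at 4 genes, against 8.71%, counts too small to read as a trait of the list. Drosha and Dgcr8, which cut the hairpin from its transcript in the nucleus, both had a cluster 3 region. Xpo5, the hairpin's exporter, had cluster 4, Dicer1, which removes the loop, had cluster 1, Prkra, a Dicer partner, had cluster 2, and Tarbp2, another Dicer partner, had none within 1 kb. Of 14 genes reported as targets of these families, 13 had a region (92.9%, against 60.9% of protein-coding genes), and at 5 it was of cluster 1, against 13.1%. The list of targets is small too, and these differences were not tested. Cdkn1a, the cyclin-dependent kinase inhibitor, had cluster 9, Rbl2 of the retinoblastoma family had cluster 6, and Lats2 of the Hippo pathway, Rb1, Tgfbr2 and Rhoc had cluster 1.

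Of 8 transcription factors reported at these microRNA promoters, 7 had a region at a gene limit (87.5%, against 60.9% of protein-coding genes). At 2 of them it was of cluster 4, against 8.24% of protein-coding genes. These counts are too small to read as a trait of the list. The region at Pou5f1 was of cluster 4 and 7835 bp wide, beside the cluster 4 region of 7322 bp at the miR-290 hairpins. Tcf7l1 also had a cluster 4 region, of 2901 bp, Nanog a cluster 6 region of 4158 bp and Sox2 a cluster 8 region of 3582 bp. Klf4 had a cluster 6 region of 1047 bp, Myc a cluster 8 region of 5451 bp, and Esrrb regions of clusters 9 and 7 of up to 309 bp, while Mycn had none within 1 kb. Within 50 kb of the gene, regions summed to 19.1 kb at Pou5f1, 31.6 kb at Nanog and 13.2 kb at Sox2, against 25.7 kb at the miR-290 cluster and 4.30 kb at the miR-302 cluster, with windows that grow with gene length.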

How the data were processed

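ACC-seq was run on 6 libraries of R1 cells. Per the submitters' processing notes, cutadapt 1.18, Bowtie2 2.3.3.1, Picard and SAMtools 1.6 were used, with mm10 as the assembly. The sources used here do not describe region calling, merging or clustering. The table deposited by the authors holds positions and cluster names, with no header, signal or score, so the planned fits between treatments were not run and depth and its precision are unknown. Starts were counted from 1 and midpoints compared with gene limits of RefSeq GRCm38.p6. All 9 members matched by symbol. Counts were made with Python 3.11.15, numpy 2.4.6, pandas 2.3.3 and SciPy 1.17.1, and the counting was tested on simulated positions. No hypothesis test was run. Intervals are exact (Clopper-Pearson). Other settings are windows of 20 and 100 kb, 500 bp, 2.5 kb and 5 kb, any overlap, and regions of at least 300 bp. The members and gene lists were chosen with earlier results of these data known. Named were the members, protein-coding genes overlapping the windows and, of each list, all genes if 10 or fewer and otherwise the first 6. Other genes, the rows of joined regions and the promoters were chosen after values were seen.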

Additional observations from a re-analysis of the deposited data

How the results depend on the processing

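With a window of 20 kb the miR-290 cluster kept 4 regions and the miR-302 cluster 4, cluster 1 fell to 0% and cluster 2 took 50.0% of the 8. With 100 kb the miR-302 cluster had 15 regions and the miR-290 cluster 18, and clusters 1 and 2 took 21.2% and 12.1%. Any overlap gave 12 and 6 regions, and regions of at least 300 bp gave 11 and 4. With either locus alone the shares of clusters 1 and 2 stayed within the interval of both together. A region midpoint lay within 500 bp of 2 of 9 members (12.4% of annotated miRNA genes), both at the miR-302 cluster, because the wide miR-290 region has its midpoint 512 bp from the nearest member. It was 9 of 9 within 2.5 kb (34.0%), within 5 kb (48.4%) and with any overlap (25.3%). Chosen after seeing the data, hairpins wholly inside a region gave 5 of 9, and gaps under 2 kb, 5 kb and 12 kb gave rows of 11.9, 22.3 and 22.8 kb that ranked 14, 10 and 53, against 22.3 kb and rank 4 under 3 kb. Windows drawn from all 9 annotated hairpin entries of the miR-290 cluster gave 12 regions. No paired analysis was possible because the table holds no value per library, and leaving out replicates and other normalisations were not run for the same reason.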

Other observations

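The seed of miR-367-3p, AUUGCAC, is shared by other families. Of the 7 mature entries with that seed, miR-367-3p had a cluster 2 region midpoint within 1 kb of its hairpin, which holds for 1.22% of annotated miRNA genes, so its absence at the others does not set them apart. Mir92b had a cluster 8 region, and Mir32 and Mir25 each had a cluster 7 region. Mir92-1, Mir92-2 and Mir363 had none within 1 kb. These genes were chosen after their values were seen, and the differences were not tested.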
